A study of Mus musculus with 24 samples.

Results

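The genomic intervals described here are those of an ATAC-seq series in mouse embryonic stem cells that lie nearest to an olfactory or vomeronasal receptor gene. An interval was a member if its nearest protein-coding autosomal gene on GRCm38 had a symbol starting with Olfr, Vmn1r or Vmn2r. This gave 2453 of the 299780 intervals in the table of cells without inhibitor: 1574 nearest to an Olfr gene, 407 to a Vmn1r gene and 472 to a Vmn2r gene. In the table of inhibitor-treated cells, 1984 of 272268 intervals qualified, of which 1303 were Olfr, 310 Vmn1r and 371 Vmn2r intervals. In ATAC-seq the transposase Tn5 cuts accessible DNA and tags it for sequencing, so the reads in an interval measure how open the chromatin is there. The cells were E14, a mouse embryonic stem cell line, cultured on gelatin in serum-containing medium with LIF. There were 3 genotypes: WT and the Smad2 knockout lines Smad2_KO1 and Smad2_KO2 (KO lines below). Smad2 carries Nodal and Activin signals from their receptors to the nucleus. Each genotype was sampled untreated (Ctrl) and after 12 hours in 200 nM INK128, an inhibitor of the growth kinase mTOR, which the labels call pausing (Paused). All 6 groups had 4 libraries of 50000 cells each, 24 in all. The labels give neither the way the KO lines were made nor whether the 4 libraries of a group came from separate cultures, so the p-values below measure the spread between these libraries, which may be technical.

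Odorant receptors (Olfr genes) are G protein-coupled receptors of the main olfactory epithelium, where each sensory neuron is known to express a single receptor allele. Vmn1r and Vmn2r genes encode pheromone receptors of the vomeronasal organ. V1R neurons signal through the G protein subunit Gnai2, and V2R neurons through Gnao1. Olfr and Vmn1r coding sequences generally sit in 1 exon, while V2Rs carry a large extracellular domain encoded by several exons. All 3 families lie in long tandem clusters of close paralogs, and outside sensory neurons these clusters are known as regions packaged in closed, late-replicating chromatin. Stem cells are not a tissue in which these receptors are known to act.

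The libraries held 11.8 to 16.5 M reads inside intervals in Ctrl and 11.5 to 20.0 M in Paused. The values are the authors' normalized signal, that is, the reads in an interval divided by 1 factor per library. The 2 tables were normalized separately, so levels are given side by side and compared only within a table. In Paused, replicate 2 of Smad2_KO1 and replicate 2 of Smad2_KO2 agreed within sampling noise over all intervals (chi-square per degree of freedom 1.0013, against a noise limit of 1.0055), although the labels name different lines. Same-numbered libraries of the 2 KO lines were also close for replicates 1, 3 and 4 in Paused (1.0269, 1.0737 and 1.0262). Replicates of the same KO line gave 1.1111 to 1.4801 there. In Ctrl replicates 1 and 4 were close across the KO lines (1.0717 and 1.0161), and replicates 2 and 3 less so (1.2114 and 1.2698). A call in both KO lines is therefore not shown to rest on 2 independent lines, and this was not tested. Each library was kept in its own line. In both treatments WT replicates 3 and 4 were both above WT replicates 1 and 2 at many of the intervals that fell in the KO lines. Over all tested members this held at 18.3% in Ctrl and 18.1% in Paused. Over all intervals they were not the closest WT pair. In Ctrl they gave 1.472, against 1.2123 for replicates 1 and 2, and in Paused 1.6473, against 1.4363 for replicates 1 and 4. Counts are given with and without WT replicates 3 and 4. All 8 listed stem cell genes (Pou5f1 and Zfp42 among them) had an interval within 1 kb, whose strongest levels ran from 44.9 to 515.1 in Ctrl. The fibroblast genes, at 23.9 to 173.8, and the sensory neuron genes, at 20.4 (Omp, a marker of mature olfactory neurons) to 756.8 (Cnga4, a channel subunit), also had one. The median of these levels was 313.7 for the stem cell genes, 81.8 for the fibroblast genes and 128.3 for the sensory neuron genes. The ranges overlapped, so an interval near a gene did not by itself separate these cell types here. An accessibility table does not measure Smad2 RNA or protein and gives no check of the knockout.

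Few receptor genes had an interval at their start, and the sequences of 4 that did are printed first because they are the exceptions in the families. RefSeq promoter windows (GRCm38.p6, 250 bases before to 50 after the annotated start) were found for 1260 receptor genes of the rule. Called, here and below, means that an interval passed at an adjusted p under 0.05 against WT in each KO line with the same sign (limma on log2(value + 1), adjusted over all tested intervals). A gene with more than 1 start counted once, if any of its windows overlapped an interval. In Ctrl 14 of these genes (1.11%) did, against 9170 of 15197 other genes (60.3%). In Paused it was 12 (0.952%) against 9078 (59.7%). By family, 13 of 938 Olfr genes (1.39%), 1 of 206 Vmn1r genes (0.485%) and 0 of 116 Vmn2r genes had such a window in Ctrl. Many annotated receptor starts may be starts of the coding sequence: 78.6% of Olfr spans and 87.0% of Vmn1r spans were multiples of 3 bases long, compared with 33.7% for other genes, so a more distant true promoter would fall outside the window. The 250 bases upstream of the start are shown 5′ to 3′ on the gene's strand, and capitals mark the bases inside an interval. Olfr373 (chr8:72099512-72099761, plus strand) had the strongest interval of any receptor promoter and is shown with its Ctrl interval. Vmn1r223 (chr13:23248988-23249237, plus strand, Ctrl interval) was the single vomeronasal gene with one. Olfr288 (chr15:98195543-98195792, minus strand) and Olfr976 (chr9:39961045-39961294, minus strand) are shown with their Paused intervals, which were called higher in both KO lines.
Olfr373: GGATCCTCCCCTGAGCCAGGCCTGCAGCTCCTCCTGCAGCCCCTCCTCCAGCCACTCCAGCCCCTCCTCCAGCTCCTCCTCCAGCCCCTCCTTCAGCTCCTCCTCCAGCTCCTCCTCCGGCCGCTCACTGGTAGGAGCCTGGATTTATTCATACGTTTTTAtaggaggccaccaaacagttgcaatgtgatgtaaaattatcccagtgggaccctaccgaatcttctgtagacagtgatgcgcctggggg
Vmn1r223: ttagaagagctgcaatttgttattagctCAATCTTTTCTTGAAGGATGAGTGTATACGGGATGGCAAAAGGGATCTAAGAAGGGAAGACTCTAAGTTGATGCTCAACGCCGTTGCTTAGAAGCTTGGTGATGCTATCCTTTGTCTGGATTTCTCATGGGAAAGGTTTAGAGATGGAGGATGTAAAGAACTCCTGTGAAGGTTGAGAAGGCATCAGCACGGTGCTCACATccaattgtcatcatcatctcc
Olfr288: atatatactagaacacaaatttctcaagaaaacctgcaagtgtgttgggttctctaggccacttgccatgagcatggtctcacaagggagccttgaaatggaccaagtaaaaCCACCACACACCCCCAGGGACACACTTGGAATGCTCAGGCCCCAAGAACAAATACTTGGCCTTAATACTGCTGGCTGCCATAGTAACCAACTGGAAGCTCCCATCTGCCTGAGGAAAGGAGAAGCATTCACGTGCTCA
Olfr976: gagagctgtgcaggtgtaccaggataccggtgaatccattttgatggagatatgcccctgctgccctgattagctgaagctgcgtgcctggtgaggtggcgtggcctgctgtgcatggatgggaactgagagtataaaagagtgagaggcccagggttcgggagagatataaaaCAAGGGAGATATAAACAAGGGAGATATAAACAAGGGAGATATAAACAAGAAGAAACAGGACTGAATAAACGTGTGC

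The Olfr373 stretch held 58.8% G and C and 5 CpG dinucleotides, the Vmn1r223 stretch 43.2% and 4, the Olfr288 stretch 48.0% and 1, and the Olfr976 stretch 48.4% and 5. Over those 250 bases, the median receptor window held 34.8% G and C and 1 CpG, against 56.8% and 11 for the windows of other genes. No CpG at all was present in 40.8% of receptor windows and in 3.99% of the others. The 17 receptor windows with an interval in either table had a median of 43.6% G and C and 3 CpG. The upstream 250 bases of 1265 receptor windows (some genes have more than 1 start) and 18820 others were searched on both strands for letters bound by factors known in olfactory neurons or stem cells. The homeodomain core TAATTA was in 16.2% of receptor windows, 3.45% of other windows and 4.26% of all windows of this length. It was in 0 of the 17 receptor windows with an interval. The octamer ATGCAAAT, bound by Pou5f1, was in 2.45% of receptor windows and 1.59% of all. AATCCACA, a core bound by Foxh1, the DNA-binding partner of Smad2, was in 2.37% and 0.647%. By family it was in 2.12% of Olfr, 0.0% of Vmn1r and 8.55% of Vmn2r windows (10 of 117). The Esrrb letters TCAAGGTCA (0.0791% and 0.329%), the Smad palindrome GTCTAGAC (0.0791% and 0.194%) and the EBF motif (0.316% and 0.846%) were rare in both. A match is a description of letters, not of binding, and none of these motifs contains another. TAATTA holds only A and T, the EBF motif mostly G and C, and receptor windows held less G and C. The shares were not compared at equal base composition, so they do not show an excess or lack beyond it. Windows of close paralogs were each counted, so matches within a family may not be independent of each other.

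The Olfr373 interval had values of 127.1, 108.4, 101.9 and 94.9 in the 4 WT libraries in Ctrl, a mean of 108.1 ± 13.8 (SD, n = 4). The 8 KO libraries lay between 128.5 and 148.7, above all WT libraries. The log2 fold change was 0.33 in Smad2_KO1 and 0.38 in Smad2_KO2 (SE 0.11 for both, limma adjusted p = 0.0475 and 0.022), so it was just inside the threshold, and 17 of 27 alternatives ended the call. Among those, it ended without WT replicate 2, 3 or 4 and without any 1 KO library, and the change ran from 0.23 to 0.49. In Paused the same position measured 118.9 ± 17.5 in WT and 122.3 ± 6.46 and 126.2 ± 11.1 in the KO lines and was not called (limma adjusted p = 0.792 and 0.606). The Olfr288 promoter interval rose in Paused, from 12.6 ± 1.45 in WT to 21.4 ± 4.95 and 24.4 ± 3.93 in the KO lines (log2 fold changes 0.70 and 0.89, limma adjusted p = 0.0332 and 0.00696). In Ctrl it measured 13.8 ± 2.38, 17.1 ± 3.82 and 19.2 ± 6.8 and did not pass. The Olfr976 interval rose in Paused from 6.74 ± 4.69 in WT, with libraries from 0.0 to 10.8, to 17.4 ± 6.72 and 12.7 ± 3.84 (log2 fold changes 1.64 and 1.25, limma adjusted p = 0.00946 and 0.0471). The Vmn1r223 interval had a mean of 5.24 over the 12 Ctrl libraries, too low to be tested.

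Most receptor intervals lay between genes and not in them. In Ctrl 232 were inside a receptor gene, 62 within 1 kb, 1036 at 1 to 10 kb, 1095 at 10 to 100 kb and 28 farther away. The median distance was 8816 bases, and the median of other autosomal intervals was 0, inside a gene. The Paused counts were 178, 46, 836, 901 and 23. Whether an interval inside a gene was exonic or intronic was not analysed here. Receptor genes flanked 1857 of the Ctrl and 1478 of the Paused intervals on both sides. The genes themselves were often without any interval assigned to them: 692 of 1104 Olfr genes (62.7%), 127 of 231 Vmn1r genes (55.0%) and 91 of 123 Vmn2r genes (74.0%) had at least 1 in Ctrl, and 93.6% of other autosomal genes did. An interval inside the gene was found for 9.60% of Olfr, 2.60% of Vmn1r and 35.0% of Vmn2r genes against 86.6% of other genes. The Vmn2r genes are much longer, with a median span of 24544 bases against 950 for Olfr and 924 for Vmn1r.

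Receptor clusters held few intervals per length. In 40 runs of at least 10 neighbouring receptor genes, which together held 1029 genes over 30.74 Mb, there were 43.0 intervals per Mb in Ctrl, and 120.4 per Mb over all autosomes, 2.8 times as many. In Paused the densities were 32.8 and 109.5 per Mb, a ratio of 3.34. The largest run, 123 Olfr genes from Olfr153 to Olfr1274 (chr2:87532035-90401674), had 36.2 intervals per Mb in Ctrl and 26.5 in Paused. Runs differed widely: those from Vmn1r91 to Vmn1r101 and from Vmn1r112 to Vmn1r123 held 0 intervals. In Ctrl the run from Vmn2r30 to Vmn2r37 had 3.66 per Mb and that from Olfr62 to Olfr1328 115.1. The treatment of reads that map to several places is not given, and its part in the low density was not tested.

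Where an interval existed, its signal was somewhat below that of other intervals. Of the members, 83.7% in Ctrl and 87.0% in Paused passed the filter for testing (a value of 10 or more in at least 4 of 12 libraries), compared with 94.3% and 95.9% of other autosomal intervals. The 2052 tested members in Ctrl had a median level of 19.5 (22.5 for other intervals), and the 1726 in Paused 21.6 (25.7). The family medians in Ctrl were 19.8 for Olfr, 18.5 for Vmn1r and 18.6 for Vmn2r. Ordered by mean level into 10 equal groups of all tested intervals, 14.6% of the Ctrl members and 15.2% of the Paused members were in the lowest and 6.14% and 5.39% in the highest. Because both the number of calls and the size of the change moved with level, each count below is set beside other autosomal intervals weighted to the members' level groups, called "same-level intervals". This comparison is a description and not a test.

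Each family also held strong intervals. The strongest Olfr interval in Ctrl (chr17:37995721-37995921, 42.7 kb from Olfr761) had 433.7 to 521.3 in WT and 396.3 to 503.2 in the KO libraries. The groups overlapped, and neither line passed the test (limma adjusted p = 0.805 and 0.672). Vmn1r223 had the strongest Vmn1r interval in Ctrl (chr13:23270479-23270679, 20.2 kb away), with a mean of 314.7, and Vmn1r4 the strongest inside a Vmn1r gene (chr6:56923873-56924073), with 310.9. At both, WT and KO libraries overlapped. The strongest Vmn2r interval, near Vmn2r3 (chr3:64321937-64322137), measured 519.6 ± 47.3 in WT, 446.9 ± 29.3 in Smad2_KO1 and 446.3 ± 36.7 in Smad2_KO2 (limma adjusted p = 0.0827 and 0.0819). It missed the threshold, and passed it, as lower, in 6 of 27 alternatives. In Paused the strongest Olfr interval lay 4.43 kb from Olfr288 (chr15:98181378-98181578) and fell in both KO lines. Its WT libraries had 580.8, 468.0, 513.6 and 552.2, its Smad2_KO1 libraries 420.9, 430.5, 409.5 and 428.1, and its Smad2_KO2 libraries 432.5, 441.7, 450.2 and 446.3. All 8 KO libraries were below all WT libraries, with log2 fold changes of -0.32 and -0.25 (limma adjusted p = 0.00304 and 0.0182). That call was lost with a loess scaling along the level, where the change was -0.09, and when WT replicate 1 (-0.24), WT replicate 4 (-0.26), both WT replicates 3 and 4 (-0.27) or Smad2_KO2 replicate 1 (-0.28) was left out. The interval inside Vmn2r85 (chr10:130420029-130420229) fell as well, from 415.2 ± 37.2 to 345.8 ± 23.7 and 340.0 ± 16.4 (limma adjusted p = 0.0234 and 0.0139). It lost the call without WT replicates 1 and 2 (-0.25), WT replicate 2 alone (-0.22), Smad2_KO1 replicate 2 (-0.25) or Smad2_KO1 replicate 3 (-0.27), and with loess, at -0.10. The strongest Paused intervals of Vmn1r4 (mean 359.3), Vmn2r90 (440.2) and, inside a gene, Olfr658 (168.4) were not called.

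The Ctrl comparison asks which of these intervals changed in accessibility in untreated cells of the Smad2 KO lines. Against WT, 271 of 2052 tested members (13.2%) passed in Smad2_KO1 and 270 (13.2%) in Smad2_KO2, where the share over all 282089 tested intervals was 11.6% and 10.7% (limma, Benjamini-Hochberg adjusted p under 0.05). In both lines with the same sign 173 members (8.43%) were called, where 7.15% of all tested intervals were. Of the members 93 (4.53%) rose, against 3.95% of all tested intervals, and 80 (3.90%) fell, against 3.2% of all. Same-level intervals rose in 3.88% and fell in 2.78%. A bulk assay cannot tell apart an interval open in fewer cells from one less open in each cell.

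The split between higher and lower depended on the scaling of the libraries. With DESeq2 size factors 59 members rose and 117 fell, with TMM factors 64 and 114, and with a loess scaling along the level 60 and 107. The scaling moved the intervals as a whole: their median log2 fold change was 0.08 with the authors' scaling and 0.01 with size factors. Under size factors 5.70% of the members and 3.97% of same-level intervals fell, and 2.88% and 2.79% rose. In each of the 27 alternatives run per table the share of members that fell was above that of same-level intervals, by 0.64 to 2.55 percentage points in Ctrl and 1.39 to 3.31 in Paused. The share that rose differed from theirs by 0.006 to 2.02 points in Ctrl and -0.778 to 0.739 in Paused. Without WT replicates 3 and 4, 48 members rose and 39 fell in Ctrl (1.90% fell, against 0.971% of same-level intervals). Those 2 libraries were both above WT replicates 1 and 2 at 18.3% of the tested members, against 16.2% of same-level intervals. They were so at 43 of the 80 members that fell (53.8%). At other autosomal intervals that fell the figure was 48.4%.

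**Figure D1:**
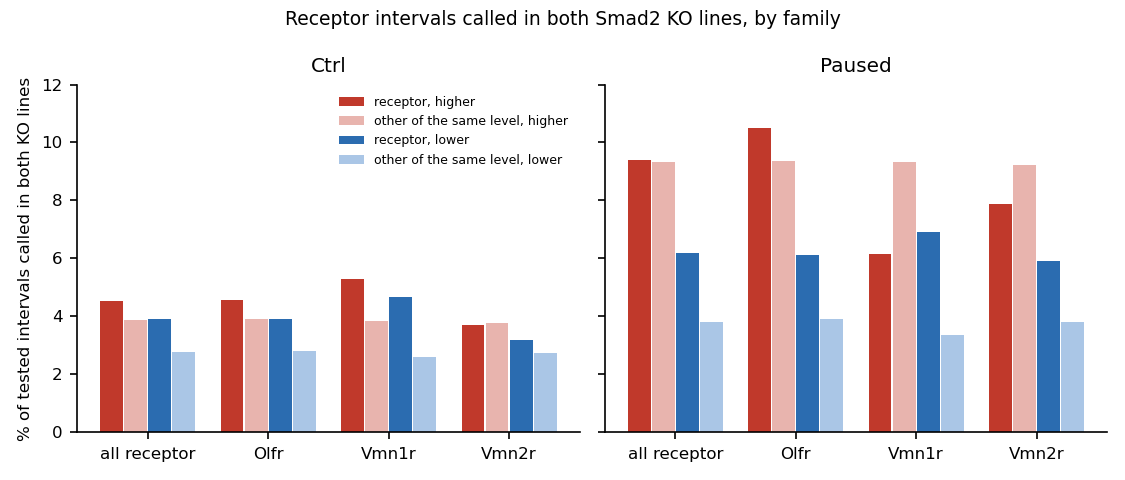
Percent of tested receptor intervals called higher (red) or lower (blue) in both KO lines, for all members and each family, in Ctrl (left) and Paused (right), with the share of same-level autosomal intervals beside each in a lighter shade. In Ctrl 4.53% of members rose and 3.90% fell, and in Paused 9.39% and 6.20%.

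By family, 62 Olfr intervals rose (4.58% of tested, same-level 3.91%) and 53 fell (3.91%, same-level 2.83%) in Ctrl. Of the Vmn1r intervals 17 rose (5.30%, same-level 3.84%) and 15 fell (4.67%, same-level 2.61%). Of the Vmn2r intervals 14 rose (3.71%, same-level 3.79%) and 12 fell (3.18%, same-level 2.74%). Each family's median log2 fold change was 0.13, and that of same-level intervals was 0.10 for Olfr, 0.12 for Vmn1r and 0.11 for Vmn2r. Differences between families were not tested. By position, of 194 tested intervals inside a receptor gene 5 rose (2.58%, same-level 3.67%) and 6 fell (3.09%, same-level 2.64%). Of 52 within 1 kb 2 rose (3.85%, same-level 4.09%) and 2 fell (3.85%, same-level 2.91%). At 1 to 10 kb 43 of 881 rose (4.88%, same-level 3.88%) and 38 fell (4.31%, same-level 2.86%). At 10 to 100 kb 43 of 901 rose (4.77%, same-level 3.90%) and 34 fell (3.77%, same-level 2.73%). Of 24 farther away 0 rose and 0 fell.

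Among the odorant receptor intervals the largest increases in Ctrl were at Olfr836, described further below, and at Olfr1130 (chr2:87602588-87602788). The Olfr1130 interval, with 2.14, 4.48, 8.76 and 1.08 in WT and 8.55 to 12.7 in the KO libraries, is near the lower limit of what was tested, and its call was lost in 12 of 26 alternatives, among them without WT replicate 1, without WT replicate 4 and without any 1 Smad2_KO1 library. Over the alternatives its change ran from 1.03 to 1.77. The largest decreases lay near Olfr339, Olfr223 and Olfr494. Near Olfr494 (chr7:108377094-108377294, 8.66 kb from the gene) WT libraries had 22.4, 32.3, 51.5 and 43.1, and the 8 KO libraries had 8.22 to 15.5. Every KO library was below every WT library, with log2 fold changes of -1.41 in both lines (limma adjusted p = 0.000172 and 0.000179). Omitting WT replicates 3 and 4 left -1.01 and no call.

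In the V1R family, intervals near Vmn1r1 and Vmn1r53 rose in every alternative run. The Vmn1r1 interval (chr1:182170522-182170722, 12.4 kb away) had 19.2, 15.2, 20.8 and 8.63 in WT, 37.6, 30.8, 38.4 and 30.0 in Smad2_KO1, and 30.1, 29.1, 44.6 and 34.2 in Smad2_KO2. The groups did not overlap, and the log2 fold change was 1.11 in both lines (SE 0.22, limma adjusted p = 0.000462 and 0.000485). The Vmn1r53 interval (chr6:90229031-90229231, 4.59 kb away) rose from 12.4 ± 3.26 in WT to 28.6 ± 7.21 and 25.7 ± 2.35 (limma adjusted p = 0.000501 and 0.00193). Near Vmn1r9 the rise from 6.81 ± 3.47 to 14.9 ± 1.87 and 14.2 ± 3.27 lost its call in 8 of 26 alternatives, among them without WT replicate 1 (0.84), WT replicate 2 (0.97), Smad2_KO2 replicate 3 (1.05) or Smad2_KO2 replicate 4 (1.05). The deepest fall of all members was near Vmn1r88, given with the Paused values below. The interval near Vmn1r198 (chr13:22345627-22345827) fell from 33.1, 22.4, 77.8 and 45.3 in WT to 10.3 to 19.6 in the KO libraries, with no overlap. Its call, at -1.52 and -1.25, was lost when WT replicates 3 and 4 were omitted (-0.84). The Vmn1r210 interval fell from 23.6 ± 10.9 to 9.06 ± 3.09 and 10.4 ± 4.81, with overlapping libraries. Its call was lost without WT replicate 3 (-0.91), Smad2_KO2 replicate 3 (-1.08) or Smad2_KO2 replicate 4 (-1.13), and without WT replicates 3 and 4 together (-1.09).

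In the V2R family the 3 largest increases were at intervals of low signal. An interval inside Vmn2r63 (chr7:42913858-42914058) rose from 3.63 ± 1.45 in WT to 11.7 ± 4.31 and 10.2 ± 5.04, and 18 of 26 alternatives ended the call, with changes from 1.06 to 1.53. Leaving out WT replicate 2, 3 or 4, any 1 Smad2_KO1 library or Smad2_KO2 replicate 1, 2 or 4 was enough. For Vmn2r79 the rise from 4.92 ± 2.77 to 14.2 ± 1.72 and 11.1 ± 3.83 was lost in 16 of 26 alternatives (changes from 0.88 to 1.67), among them without WT replicate 1, 2 or 4, Smad2_KO1 replicate 1, 2 or 3, or Smad2_KO2 replicate 1, 2 or 3. The Vmn2r27 interval (chr6:124256261-124256461), at 8.54, 8.06, 8.76 and 5.39 in WT and 10.1 to 27.3 in the KO libraries, lost it in 2 of 26, without Smad2_KO2 replicate 2 (1.05) and without WT replicates 3 and 4 (1.03). The decreases at Vmn2r2 and Vmn2r120 are given below with their Paused values. The Vmn2r124 interval fell from 22.0 ± 13.5 to 7.99 ± 4.99 and 7.64 ± 2.0, with overlapping libraries. Its change was -0.47 and not called without WT replicates 3 and 4, and the call also ended without WT replicate 3 (-1.02) or 4, Smad2_KO1 replicate 4 (-1.07), or Smad2_KO2 replicate 1 (-1.27), 2 (-1.30) or 3 (-1.21).

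The Paused comparison asks the same question in cells under mTOR inhibition. More of all intervals passed here, and more of the members did too: 355 of 1726 (20.6%) in Smad2_KO1 and 365 (21.2%) in Smad2_KO2, where 19.4% and 19.3% of all 260539 tested intervals passed (limma). By the same rule 269 members (15.6%) were called, against 13.9% of all tested intervals. Of these 162 (9.39%) rose, against 9.01% of all, and 107 (6.20%) fell, against 4.92% of all. Same-level intervals rose in 9.34% and fell in 3.82%. Size factors gave 103 higher and 157 lower members, TMM factors 111 and 149, and loess 78 and 118. The median log2 fold change of all intervals moved from 0.12 to 0.02 with size factors, and the members' median from 0.14 to 0.04, or to -0.01 with loess. Without WT replicates 3 and 4, 135 members rose and 68 fell (3.94%, against 2.53% of same-level intervals). Those 2 libraries were both above the other 2 WT libraries at 35 of the 107 intervals that fell (32.7%), against 29.4% of other autosomal intervals that fell.

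Olfr intervals rose in 122 cases (10.5% of tested, same-level 9.37%) and fell in 71 (6.11%, same-level 3.92%). Vmn1r intervals rose in 16 (6.15%, same-level 9.33%) and fell in 18 (6.92%, same-level 3.37%). Vmn2r intervals rose in 24 (7.90%, same-level 9.21%) and fell in 18 (5.92%, same-level 3.82%). The family medians were 0.15, 0.12 and 0.13, next to 0.16, 0.18 and 0.17 for same-level intervals.

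Effects followed the level of an interval among members much as among other intervals. In the lowest level group the median log2 fold change of members was 0.33 in Ctrl (0.23 for other intervals) and 0.44 in Paused (0.36), and in the highest it was -0.06 (-0.07) and -0.13 (-0.14). In the upper 5 level groups 7.56% of Ctrl members fell, compared with 4.52% of other intervals, and 10.5% against 6.94% in Paused. In the lower 5 level groups 1.19% of Ctrl members and 1.48% of other intervals fell, and 3.02% against 1.52% in Paused. In the highest Paused group these shares were 23.7% and 18.2%. The median moved from above 0 to below 0 along the level in both tables.

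**Figure D2:**
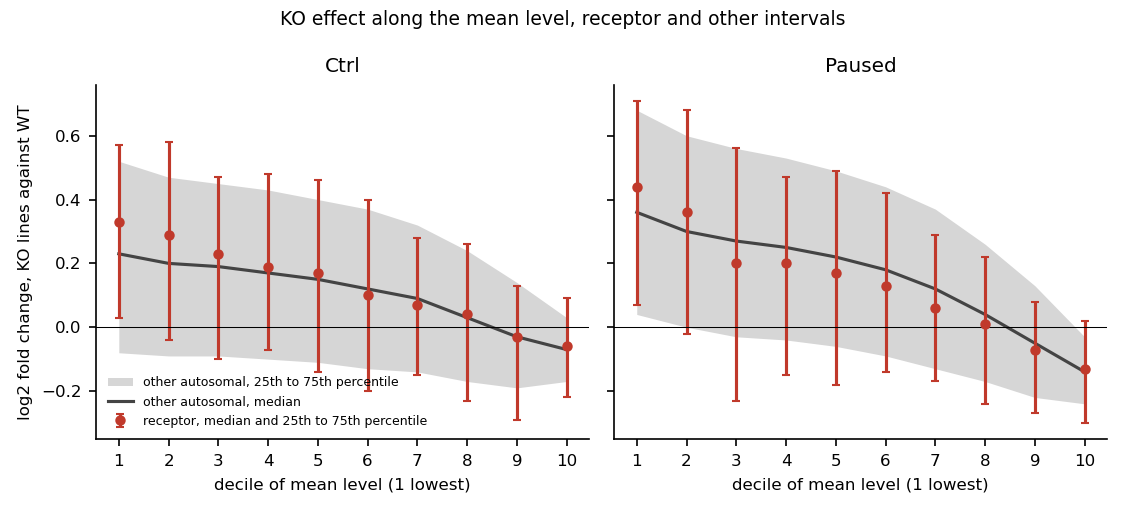
Median log2 fold change of the KO lines against WT (vertical axis, with quartiles) by level group (horizontal axis, 10 groups of mean level, 1 lowest) for receptor intervals and other autosomal intervals in Ctrl and Paused. In both groups the median falls from the lowest group (0.33 and 0.23 in Ctrl) to the highest (-0.06 and -0.07).

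Named Paused increases in the Olfr family were near Olfr836, Olfr1036 and Olfr1126. The Olfr1036 interval (chr2:86071764-86071964, 2.74 kb away) had 6.48, 4.29, 6.47 and 6.62 in WT and 12.9 to 28.5 in the KO libraries. WT and KO did not overlap, and the log2 fold changes of 1.42 and 1.41 (limma adjusted p = 0.000897 and 0.000977) kept their call in every alternative run. The Olfr1126 interval rose from 3.69 ± 1.03 to 12.2 ± 3.36 and 11.5 ± 3.52 and lost its call with loess alone (1.04). The interval 19.6 kb from Olfr15 (chr16:3819211-3819411) fell from 17.3, 16.1, 30.2 and 27.8 in WT to 5.61 to 11.0 in the KO libraries. That call was lost without WT replicates 3 and 4 (-1.03).

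Of the large Paused changes, those with the highest signal were in the Vmn1r family. The interval near Vmn1r42 (chr6:89835577-89835777, 8.74 kb away) had 35.6, 22.5, 52.9 and 60.9 in WT. It reached 87.4, 108.7, 112.3 and 99.3 in Smad2_KO1 and 99.9, 106.5, 111.1 and 90.8 in Smad2_KO2, above every WT library. The mean rose 2.37 times, with a log2 fold change of 1.32 in each line (SE 0.17, limma adjusted p = 1.87e-06 and 1.7e-06). The interval 2.49 kb from Vmn1r86 (chr7:13105433-13105633) rose from 16.2, 15.0, 10.8 and 3.97 in WT to 25.8 to 49.5 in the KO libraries (log2 fold changes 1.54 and 1.75, limma adjusted p = 8.7e-05 and 1.77e-05). In the other direction, the interval 7.02 kb from Vmn1r211 (chr13:22844378-22844578) had 93.9, 114.9, 112.2 and 113.9 in WT, 42.8, 17.2, 34.6 and 67.5 in Smad2_KO1, and 56.9, 30.8, 43.8 and 51.4 in Smad2_KO2. Here the 4 WT libraries lay close together and above all KO libraries, and the log2 fold change was -1.55 in Smad2_KO1 and -1.26 in Smad2_KO2 (SE 0.22, limma adjusted p = 3.55e-06 and 7.75e-05). These 3 intervals kept their calls in all 27 alternatives run on each, the omission of WT replicates 3 and 4 included. The Vmn1r71 interval rose from 7.11 ± 3.71 to 14.9 ± 5.98 and 17.3 ± 2.66, with overlap, and lost its call in 11 of 26 alternatives, among them without WT replicate 1 or 2 and without Smad2_KO1 replicate 1, 3 or 4 (changes from 0.62 to 1.66). The Vmn1r29 interval fell from 26.5 ± 11.3 to 9.05 ± 1.67 and 9.31 ± 2.5, and its call was lost without WT replicates 3 and 4 (-0.83).

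For the V2R genes, the interval inside Vmn2r25 (chr6:123824292-123824492) had 43.2, 31.1, 34.5 and 41.1 in WT, 23.8, 18.1, 13.8 and 14.9 in Smad2_KO1, and 19.0, 11.3, 13.5 and 14.2 in Smad2_KO2. No KO library reached a WT library. Its fall of -1.06 and -1.32 (SE 0.23, limma adjusted p = 0.00109 and 9.22e-05) held in all 27 alternatives. The Vmn2r110 interval rose from 7.71 ± 4.47 to 16.1 ± 4.28 and 17.4 ± 3.32, with WT replicate 2 low at 1.07: without that library the change was 0.68 and not called. It was also lost without Smad2_KO1 replicate 1 (1.24) or 2 (1.21). The Vmn2r58 interval rose from 8.92 ± 5.95 to 22.8 ± 4.67 and 18.2 ± 3.31. There WT replicate 3 (2.16) was low, and the change was 0.87 and not called without it, and 0.58 without WT replicates 3 and 4. The largest Vmn2r increase, near Vmn2r62, is given with its neighbours below.

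Intervals of the 2 tables were paired when each covered at least 50% of the other and had no second partner. Of the members 1676 had a partner, 68.3% of those in Ctrl and 84.5% of those in Paused, and 1477 pairs were tested in both tables. Both comparisons use their own WT libraries. Of these pairs 158 were called in Ctrl and 244 in Paused, 37 rose in both tables, 48 fell in both, and 0 went in opposite directions. The shared calls were 53.8% of the Ctrl and 34.8% of the Paused calls, next to 60.0% and 33.0% for other autosomal intervals. An effect called in 1 table and not in the other is not shown to differ between treatments, and that difference was not tested.

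The 5 matched intervals with the largest change in both tables all fell. Near Vmn1r88 (chr7:13163881-13164081, 13.6 kb away) Ctrl values were 21.4, 22.4, 69.0 and 55.0 in WT, 4.69 to 11.3 in Smad2_KO1 and 6.37 to 8.05 in Smad2_KO2. In Paused WT had 15.1, 19.3, 42.1 and 38.4, and the KO libraries 1.81 to 7.77. The WT mean was 5.86 times the KO mean in Ctrl and 8.33 times in Paused, and no KO library overlapped WT in either (log2 fold changes from -2.24 to -2.73, largest limma adjusted p = 2.96e-05). The Olfr339 interval (chr2:36413951-36414151, 7.25 kb away) had 38.5, 38.5, 90.9 and 64.7 in Ctrl WT and 9.56 to 20.0 in the KO libraries. In Paused it had 21.6, 24.7, 39.9 and 51.7 in WT and 4.0 to 15.2 in the KO libraries, again without overlap. The Olfr223 interval (chr11:59600982-59601182) fell from 58.9 ± 31.3 to 12.2 ± 0.903 and 15.3 ± 3.89 in Ctrl and from 49.9 ± 31.3 to 12.7 ± 3.6 and 12.7 ± 7.29 in Paused. Inside Vmn2r2 (chr3:64121710-64121910) the interval fell from 61.7 ± 28.9 to 16.3 ± 4.94 and 14.0 ± 3.53 in Ctrl and from 35.2 ± 24.9 to 7.91 ± 4.16 and 7.86 ± 4.97 in Paused. The Vmn2r120 interval (chr17:57572005-57572205) fell from 64.4 ± 27.4 to 23.0 ± 6.42 and 23.7 ± 3.02 in Ctrl and from 38.8 ± 15.2 to 10.2 ± 3.41 and 8.04 ± 1.5 in Paused.

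At all 5 intervals, in both tables, WT replicates 3 and 4 were higher than WT replicates 1 and 2. With both left out, Olfr339, Vmn1r88 and Vmn2r120 remained called in both tables, and Olfr223 and Vmn2r2 in Ctrl. In Paused the Olfr223 and Vmn2r2 changes then were -0.86 each and not called, and at these a KO library reached into the range of the WT libraries. Why these WT libraries were higher at these intervals was not tested.

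**Figure D3:**
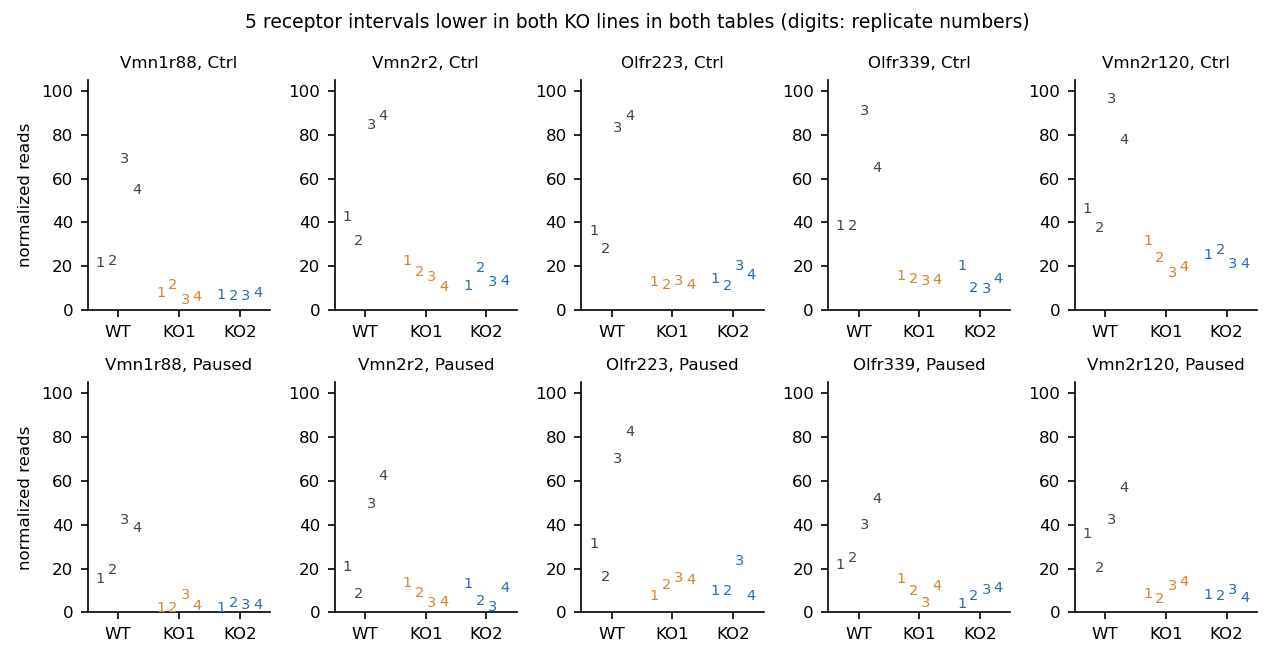
Normalized signal (vertical axis) in every library of WT, Smad2_KO1 and Smad2_KO2 at the 5 matched intervals, Ctrl above and Paused below, with each point drawn as its replicate number. WT replicates 3 and 4 lie above WT replicates 1 and 2 in all 10 panels, and at Vmn1r88, Olfr339 and Vmn2r120 all KO libraries lie below all WT libraries.

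Olfr836 (chr9:19120957-19121911) had several intervals that changed in the same direction, and was chosen for an interval-by-interval account after its counts were seen. It is also among the 3 Olfr genes with the most intervals in each table, the others being Olfr267 and, for 1 table each, Olfr129 and Olfr161. In Ctrl 6 of its 12 tested intervals rose and 0 fell, and in Paused 10 of 14 rose and 0 fell. The median log2 fold change of its tested intervals was 0.63 in Ctrl and 0.84 in Paused. The summed signal of its 13 Ctrl intervals was 506.3, 513.3, 483.0 and 543.5 in WT, 770.2, 828.6, 738.4 and 694.3 in Smad2_KO1, and 711.5, 748.1, 636.3 and 695.4 in Smad2_KO2. In Paused, over 14 intervals, WT had 531.1, 552.8, 460.7 and 482.0, Smad2_KO1 774.4, 735.9, 748.9 and 756.8, and Smad2_KO2 781.1, 799.4, 694.9 and 760.3. Every KO library exceeded every WT library in both tables. Its neighbouring intervals share a locus and are not independent of each other. Over all alternatives run, between 2 and 9 rose in Ctrl and between 4 and 11 in Paused, and 0 fell. Without WT replicate 1, 3 rose in Ctrl, and without Smad2_KO1 replicate 1, 6 rose in Paused.

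The strongest Olfr836 interval (chr9:19093433-19093633, 27.3 kb from the gene body) had 249.9, 230.2, 213.6 and 282.5 in WT, 361.6, 363.9, 358.9 and 315.4 in Smad2_KO1, and 353.7, 338.6, 281.5 and 297.9 in Smad2_KO2 in Ctrl. Only the lowest KO library, at 281.5 in Smad2_KO2, was below the highest WT library. The log2 fold change was 0.52 and 0.38 (limma adjusted p = 0.000165 and 0.00572). In Paused it rose from 281.1 ± 23.8 to 364.5 ± 7.65 and 359.5 ± 22.5 (0.38 and 0.36, limma adjusted p = 0.0015 and 0.00269). The interval 24.6 kb away (chr9:19096165-19096365 in Ctrl) rose from 35.6 ± 14.3 to 61.5 ± 9.36 and 55.5 ± 6.04 in Ctrl. In Paused it rose from 38.9 ± 3.47 to 72.8 ± 5.84 and 67.1 ± 9.64 (limma adjusted p = 4.83e-05 and 0.00034). The weaker ones changed by more on the log scale. At chr9:19109647-19109847 WT had 7.48, 8.06, 5.48 and 4.31 in Ctrl and the KO libraries 11.2 to 24.7, a log2 fold change of 1.29 and 1.32, which was not called without WT replicates 3 and 4 (1.02). At chr9:19113673-19113873 the rise from 6.84 ± 3.05 to 15.2 ± 3.08 and 16.2 ± 2.05 lost its call without WT replicate 1 (0.90) or Smad2_KO1 replicate 1 (1.13). On the other side of the gene, 5.36 kb away (chr9:19127273-19127473), Paused WT libraries had 6.48, 14.0, 3.24 and 6.62 and KO libraries 18.9 to 29.2 (limma adjusted p = 0.000525 and 0.000165), and the call held in all 26 alternatives.

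Vmn2r62 (chr7:42764438-42793496), the Vmn2r gene with the most intervals in both tables, was described in the same way. In Ctrl 1 of its 13 tested intervals rose, from 102.9 ± 5.89 in WT to 157.1 ± 8.14 and 145.1 ± 8.03, at chr7:42832343-42832543, 38.9 kb from the gene (limma adjusted p = 0.000167 and 0.00208). In Paused this position measured 137.7 ± 19.9, 167.4 ± 8.16 and 156.6 ± 13.8 and was not called (limma adjusted p = 0.055 and 0.216), while 5 other intervals rose and 0 fell. The largest of these changes, at chr7:42740492-42740692, went from 2.16, 6.44, 2.16 and 1.32 in WT to 6.91 to 16.8 in the KO libraries (log2 fold changes 1.74 and 2.10, limma adjusted p = 0.00152 and 0.000217). Under size factors, TMM factors or loess 2 intervals of the Vmn2r62 gene were called higher in Paused and 0 lower, and 1 was with DESeq2's Wald test. The 5 became 1 without Smad2_KO1 replicate 1, and 3 without any 1 of the WT libraries or without Smad2_KO1 replicate 2 or 3. The strongest interval of the gene did not pass the test, at 359.0 ± 5.66, 378.5 ± 21.0 and 359.4 ± 27.8 in Paused (limma adjusted p = 0.546 and 0.994).

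**Figure D4:**
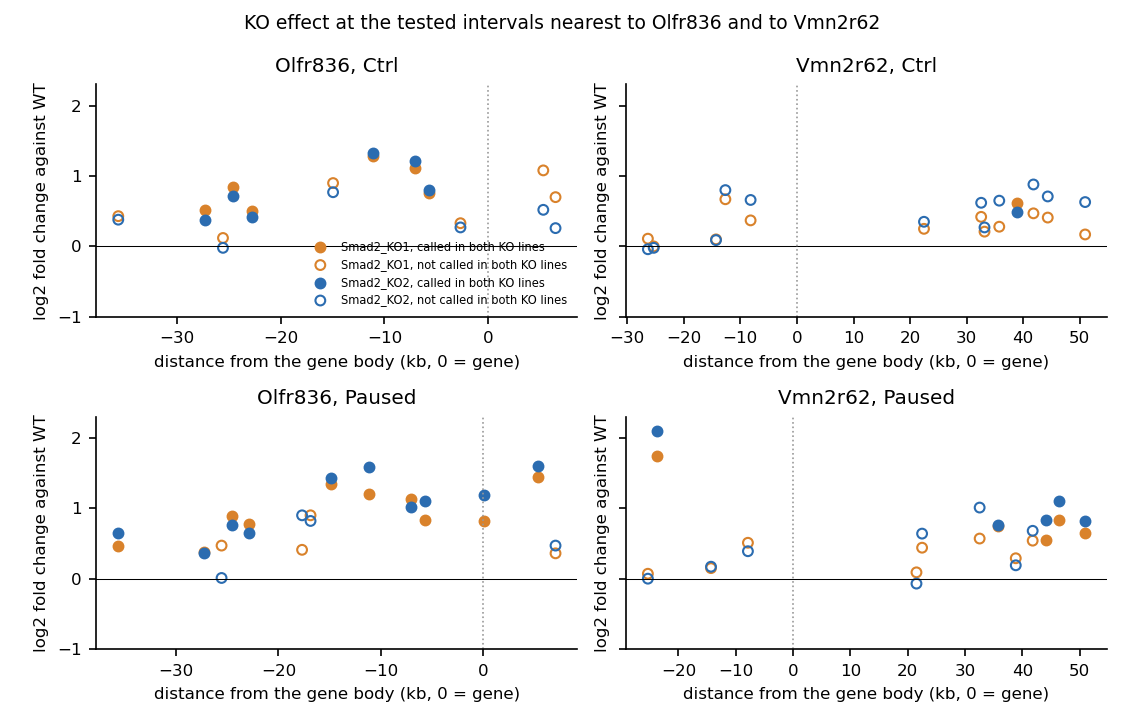
Log2 fold change of each KO line against WT (vertical axis) at the tested intervals nearest to Olfr836 and Vmn2r62, by distance from the gene body in kb (0 is the gene), in Ctrl and Paused. At Olfr836, 6 of 12 intervals in Ctrl and 10 of 14 in Paused are called higher and 0 lower, on both sides of the gene in Paused.

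Calls at other genes with many intervals stand beside 7.15% of all tested intervals called in Ctrl and 13.9% in Paused. Of tested intervals in Ctrl, Olfr267 had 14 with 0 calls and Vmn1r1 16 with 1 higher and 2 lower. Vmn2r79 had 14 with 1 higher, and Vmn2r3 12 with 1 higher. In Paused, Olfr267 had 15 with 1 higher and 1 lower, Vmn1r1 13 with 3 lower, and Vmn2r90 14 with 2 higher. These counts per gene are small and were not tested against those shares. Across the gene runs with at least 20 tested members, the median log2 fold change ran from -0.12 to 0.36 in 24 runs in Ctrl, 22 of them above 0, and from -0.22 to 0.33 in 19 runs in Paused, 16 above 0. Under this scaling the median of all tested intervals was itself above 0, at 0.08 in Ctrl and 0.12 in Paused. With loess the members' median was 0.02 and -0.01. The runs were not set beside same-level intervals, so a median above 0 does not mark them out.

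The share of signal in receptor intervals overlapped between the lines. Their share of all signal in intervals was 0.541%, 0.550%, 0.584% and 0.543% in the WT libraries in Ctrl (mean 0.554 ± 0.020), and for the KO lines 0.566% ± 0.024 and 0.562% ± 0.016 (SD, n = 4). The Paused shares were 0.477% ± 0.012, 0.482% ± 0.009 and 0.488% ± 0.0083. The lines overlapped in both tables and in each family. Olfr intervals held 0.368% ± 0.013 of the Ctrl WT signal, Vmn1r intervals 0.0771% ± 0.0025 and Vmn2r intervals 0.109% ± 0.005. The mean level of the members relative to same-level intervals was 0.931 to 1.014 over the Ctrl libraries and 0.927 to 0.983 over the Paused libraries.

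**Figure D5:**
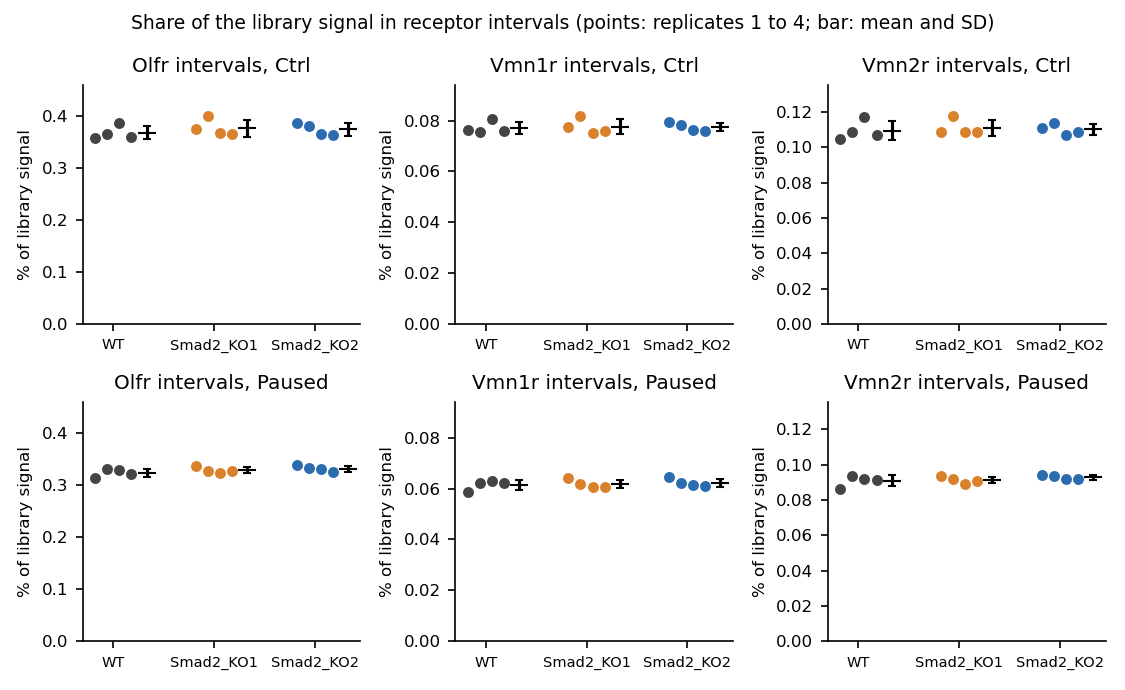
Percent of each library's signal in receptor intervals (vertical axis, from 0) for WT, Smad2_KO1 and Smad2_KO2, by family and treatment, with points for the 4 replicates and a bar for the mean and SD. The lines overlap in every panel, as in Ctrl for all families together at 0.541% to 0.601%.

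The spread between replicates at the members was like that of same-level intervals. The median SD of log2 values was 0.31 in WT, 0.28 in Smad2_KO1 and 0.29 in Smad2_KO2 in Ctrl (same-level 0.31, 0.28 and 0.28). In Paused it was 0.31, 0.25 and 0.27 (same-level 0.32, 0.25 and 0.26). Between the 2 KO lines, 0 members passed in either table with limma, where 0 of all tested intervals did. Likewise 0 members passed with limma under each other scaling, filter, pseudocount, block or omission of libraries run. No other tool was run on this comparison. At an unadjusted limma p under 0.05 there were 79 in Ctrl (3.85% of tested) and 36 in Paused (2.09%), and 3.26% and 1.95% of other intervals.

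In the authors' deposited table of the 8 KO libraries against WT, 171 Ctrl members were higher and 157 lower at a false discovery rate under 0.05 (13.4% of members, against 12.2% of all intervals). In the authors' deposited table for Paused 245 were higher and 168 lower (20.8%, against 21.6%). All 173 and 269 members called in both KO lines were among them with the same sign.

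Genes that act with these receptors elsewhere were counted as lists. Of all tested intervals, 3.95% rose and 3.2% fell in both lines in Ctrl, and 9.01% and 4.92% in Paused, which is the background for each count. Intervals nearest to signal transduction and receptor trafficking genes rose in 19 and fell in 3 of 215 tested cases in Ctrl, and rose in 25 and fell in 10 of 215 in Paused. For factors of receptor choice (234 and 214 tested) it was 12 and 6 in Ctrl and 21 and 13 in Paused. For heterochromatin and lamina genes (162 and 156 tested) it was 3 and 5, then 7 and 8. Sensory neuron markers (65 and 66 tested) had 2 and 2, then 4 and 2. All of these markers are also in the signal transduction and trafficking list, so their intervals are counted in both. The median log2 fold changes of these 4 lists ran from -0.02 to 0.17, where all tested intervals had 0.08 in Ctrl and 0.12 in Paused. For stem cell genes (396 and 379 tested) there were 27 higher and 10 lower, then 47 and 12. Primitive endoderm genes (79 and 76 tested) had 5 and 1, then 11 and 3, and fibroblast genes (81 and 71 tested) 5 and 5, then 7 and 4. Intervals of other clustered families (Defb, Krtap, Tas2r, Taar, Klra, Mrgpr, Skint and Psg) rose in 16 and fell in 5 of 439 tested cases in Ctrl, and rose in 36 and fell in 13 of 393 in Paused. Intervals of Zfp genes rose in 231 and fell in 122 of 4577, then 453 and 208 of 4280.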

How the data were processed

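ATAC-seq was measured in 24 libraries, 4 for each of 3 lines and 2 treatments. Per the submitters' processing notes, FastQC, Trim Galore, Bowtie2 2.4.1, MACS3 3.0.3 and DiffBind 3.16.0 were used with mm10. The treatment of reads that map to several places, which bears on close paralogs such as these receptors, of duplicates and of the Tn5 offset is not given in the sources used here. The authors deposited 1 table per treatment with normalized signal per interval (201 bases wide but for 12 and 6) and library: in every column at least 99.425% of the values are whole multiples of 1 step (tolerance 0.005; at most 1.36% by chance). In the authors' own comparison, deposited beside these values, the Fold column is on the log2 scale (8 KO against 4 WT libraries) and has a p-value and a false discovery rate; these were used only where named as deposited. Intervals were assigned to the nearest protein-coding autosomal gene of GRCm38 (RefSeq table), and 10 members tied.

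The tests had been laid out for counts, and limma 3.58.1 (R 4.3.3, eBayes with trend) on log2(value + 1) took their place. Intervals with a value of 10 or more in at least 4 libraries were tested, all 12 libraries of a table in 1 fit with line as the factor, and p-values were adjusted over the whole table by Benjamini-Hochberg. Fold changes on this scale understate the change of low intervals. The named intervals were, per table and family, the strongest, the strongest inside or within 1 kb of a gene, the 3 largest changes each way (by the smaller of the 2 log2 fold changes), up to 5 matched intervals called in both tables, and the 3 genes with the most intervals. The members and all gene lists were chosen with earlier results of these data known. In data simulated at the real means with 200 intervals changed, split over 4 sizes, 0, 4, 44 and 66% of changes of 1.5, 2, 3 and 4-fold were called in both lines in Ctrl (282089 intervals) and 0, 6, 62 and 76% in Paused (260539 intervals), with 0 false calls. With so few intervals changed, the adjusted threshold was stricter there than in the real tables. The spread between simulated libraries was set by a fixed value and not estimated from these data. The recovered shares therefore need not hold for the real tables. Alternatives were other scalings, filters and pseudocounts, edgeR 4.0.16 and DESeq2 1.42.0 on the recovered reads, other fits and leaving out libraries. In the fits with the KO libraries as 1 group or averaged, a call needed only a single test against WT. Tables were handled in Python 3.11.15 with pandas 2.3.3 and numpy 2.4.6.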

Additional observations from a re-analysis of the deposited data

Results flagged for a closer look

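Of 171 groups of 4 libraries examined among the values above, 20 held a library whose gap to the others was larger than Dixon's 95% limit, where about 1 in 20 groups (8.55 here) passes it by chance. In Ctrl, Smad2_KO1 replicate 2 was low at the strongest Vmn1r223 interval (282.72, the others 335.47 to 338.54) and at the Vmn1r4 interval (274.49, the others 315.79 to 323.15), and high at the Vmn2r85 interval (466.74, the others 393.9 to 402.94). Smad2_KO1 replicate 3 was high at the Vmn1r53 interval (39.36, the others 23.94 to 25.7). The same Smad2_KO1 replicate 2 had a high share of its signal in Vmn2r intervals (0.118%, the others 0.109%). WT replicate 3 had a high share in Vmn1r intervals (0.0808%, the others 0.0756% to 0.0763%) and a high mean level of the members relative to same-level intervals (1.003, the others 0.9433 to 0.9534).

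In Paused, WT replicate 2 was low at the Olfr1036 interval (4.29, the others 6.47 to 6.62) and the Vmn2r110 interval (1.07, the others 9.27 to 10.79). It was high at the named Vmn2r62 interval (6.44, the others 1.32 to 2.16), where Smad2_KO1 replicate 3 (6.91) and Smad2_KO2 replicate 4 (9.85) were low in their groups. WT replicate 3 was high at the Olfr658 interval (179.1) and low at the Olfr1126 interval (2.16), and WT replicate 1 was low at the Vmn1r211 interval (93.91, the others 112.21 to 114.85). Smad2_KO2 replicate 3 was high at the Olfr836 interval 5.36 kb from the gene (29.19) and at the Olfr223 interval (23.57, the others 7.66 to 9.99). Smad2_KO1 replicate 4 (402.25) and Smad2_KO2 replicate 1 (395.52) were low at the Vmn2r90 interval, and Smad2_KO2 replicate 4 was high at the Vmn2r85 interval (364.29). Causes were not tested.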

How the results depend on the processing

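With other settings, members that rose or fell in Ctrl (93 and 80 as reported) numbered 59 and 117 with DESeq2 size factors, 60 and 107 with loess, 56 and 129 with edgeR's quasi-likelihood test and 21 and 81 with DESeq2's Wald test. They numbered 54 and 81 when the compared lines were fitted alone, 266 and 174 with the 8 KO libraries as 1 group, 191 and 139 with KO libraries of 1 replicate number averaged, 48 and 39 omitting WT replicates 3 and 4, and, with fewer members tested than the 2052 of the reported counts, 50 and 46 of 1127 within 10 kb of a gene and 60 and 71 of 989 at a mean of 20 or more. Leaving out 1 library gave 50 to 99 that rose and 60 to 84 that fell, the lowest number of rises without Smad2_KO2 replicate 2. In Paused (162 and 107 as reported) the same settings gave 103 and 157 with size factors, 78 and 118 with loess, 98 and 158 with edgeR, 41 and 118 with DESeq2, 339 and 181 with KO as 1 group, 90 and 66 of 934 within 10 kb and 100 and 89 of 931 at a mean of 20 or more (1726 in the reported counts), 68 that fell omitting WT replicates 3 and 4, and 108 to 170 and 75 to 108 leaving out 1 library. The members' median log2 fold change (0.13 in Ctrl, 0.14 in Paused) became 0.06 and 0.04 with size factors, 0.07 and 0.05 with TMM factors, 0.02 and -0.01 with loess, 0.03 and 0.02 at a mean of 20 or more, 0.07 and 0.04 with edgeR, and 0.07 and 0.03 with DESeq2; without 1 library it ran from 0.10 to 0.15 and from 0.11 to 0.15. Counts with the KO libraries as 1 group or averaged rest on a single test against WT. They do not require a pass in each KO line, so that rule is looser than the reported one. The omission of WT replicates 3 and 4 was chosen after seeing the data. The cause of these shifts was not tested.

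The main fit did not pair libraries by replicate number. Correlations of same-numbered libraries' deviations ran from -0.006 to 0.109 in Ctrl and -0.007 to 0.187 in Paused. In 4 and 7 of 12 same-numbered pairs per table the correlation was highest with the pair's own number. Among the Paused pairs, replicates 1 to 4 of Smad2_KO1 each matched the same number of Smad2_KO2 best, at 0.089, 0.187, 0.034 and 0.111. In Ctrl this held for replicates 1 and 4 of the KO lines (0.049 and 0.109) and not for 2 and 3. With the replicate block 106 members rose and 88 fell in Ctrl, and 182 and 119 in Paused. Of 19 named Ctrl intervals that were called, 12 lost the call in some alternative, and of 20 in Paused 10 did; 0 of the called ones changed sign. Uncalled strong intervals near 0 did change sign. Olfr761 reached 0.08 with loess, 0.09 omitting WT replicates 1 and 2, and ran from -0.05 to 0.03 without 1 library, Vmn1r223 reached 0.03 and 0.12 and ran from -0.15 to 0.01, and Vmn1r4 reached 0.07 and 0.07 and ran from -0.10 to 0.03 in Ctrl and 0.03 with loess in Paused. Olfr658 went to -0.01 with size factors and with DESeq2. Vmn2r90 went to -0.09 with both, -0.08 with TMM factors, with edgeR and omitting WT replicates 3 and 4, and ran from -0.03 to 0.05 without 1 library. Between Smad2_KO1 and Smad2_KO2, 0 members passed in each alternative run, all with limma, with 38 to 94 at an unadjusted p under 0.05 in Ctrl and 20 to 51 in Paused. In the reported fit 0 of all tested intervals passed between these lines. Depth limits the lowest intervals most: those just above 10 rest on a few reads per library.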
